A study of Mus musculus with 12 samples.

Results

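The cytochrome P450 genes of families 1 to 3 encode the heme enzymes with which the liver oxidizes drugs, pollutants, steroids and fatty acids. They were taken as all protein-coding genes whose GENCODE M21 symbol begins with Cyp, a 1, 2 or 3, and a lower-case letter, which gave 61 genes of the 47729 Ensembl identifiers counted per mouse. Liver RNA was sequenced from 12 male C57BL/6 mice, 4 in each group, and reads were counted per gene. The healthy mice (labelled naive, vehicle) had neither streptozotocin nor the diet. The STAM vehicle mice had a single streptozotocin injection on day 2 of life, a high-fat diet from week 4 and vehicle once a day from week 6. The STAM I-BET151 mice had the same injection and diet, and 10 mg/kg I-BET151 by mouth once a day from week 6. All were collected at week 9. STAM is a mouse model of non-alcoholic steatohepatitis (NASH) on a diabetic background, and I-BET151 blocks the bromodomains of BET proteins, which read acetylated histones. No group received only the injection or only the diet, so their parts cannot be told apart. I-BET151 was suspended in hydroxypropyl methylcellulose with Tween 80 whereas the vehicle was methylcellulose, so drug and carrier cannot be told apart either. Each library is described as 1 mouse, and p-values measure the spread between these mice.

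P450 enzymes sit in the endoplasmic reticulum, hold a heme group and take their electrons from P450 reductase (Por). Family 1 is induced through the aryl hydrocarbon receptor (AHR), many Cyp2b, Cyp2c and Cyp3a genes through the nuclear receptors CAR (Nr1i3) and PXR (Nr1i2), and several members differ between male and female mouse liver under the pulse pattern of growth hormone. Most members are made by hepatocytes, and many mainly in those around the central vein.

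Total counts per mouse were between 34711229 and 53365596. I-BET151 mouse 3 stood apart from the other 11: its 10 most abundant genes took 7.95% of its counts (13.5% or more in the others), and its TMM normalization factor was 1.61 (0.770 to 1.11 in the others). Values are CPM, counts per 1000000 of the TMM-normalized library size, and calls on P450 genes that this mouse changes are given with and without it. All 4 matched hepatocyte markers were present, their summed level being 94540 to 111100 CPM in healthy mice, 43920 to 66620 in vehicle and 17520 to 79210 in I-BET151, with 0 of 4 passing edgeR's test of vehicle against healthy livers (1 at an unadjusted p below 0.05, 0 in DESeq2, and 3 as lower without I-BET151 mouse 3). Over the 5 macrophage markers the sum was 92.8 to 136, 155 to 260.4 and 135 to 225 CPM in the same order, and 4 of 5 passed as higher in the vehicle group (all 5 without I-BET151 mouse 3). Of 4 markers each, endothelial and cholangiocyte genes had 0 called (0 and 2 at an unadjusted p below 0.05, 0 in DESeq2), T and B cell genes had Cd8a higher in vehicle and Cd4 lower in I-BET151 livers, and nuclear-retained RNAs had Snhg11 higher in vehicle livers. Without I-BET151 mouse 3, Lyve1 (endothelial), Krt7 (cholangiocyte), Cd4 and Neat1 passed as higher in vehicle livers as well. In bulk liver RNA, fewer cells of a type and less RNA per cell cannot be told apart, and the part of cell make-up in the results was not tested.

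The P450 genes together took 2.25 ± 0.0783% of all counts in healthy livers (SD, n = 4), 1.89 ± 0.276% in vehicle and 1.63 ± 0.232% in I-BET151. On the CPM scale their sum was 23100, 24990, 30020 and 26330 in the healthy mice, 20770, 18440, 13520 and 19720 in vehicle and 14230, 20470, 10570 and 15060 in I-BET151. Every STAM liver lay below every healthy liver on both scales, and the vehicle and I-BET151 mice overlapped. The I-BET151 mean of 15080 ± 4087 CPM was 16590 ± 3389 (SD, n = 3) without I-BET151 mouse 3. Cyp2e1, which oxidizes ethanol and other small molecules, made up 36.8 ± 2.59% of that sum in healthy mice, 41.2 ± 4.18% in vehicle mice and 39.7 ± 5.53% in I-BET151 livers. Cyp3a11, a broad drug- and steroid-oxidizing enzyme, made up 17.6 ± 1.89%, 4.85 ± 1.02% and 6.20 ± 2.63%. The Cyp3a subfamily sum was 5050 to 7071 CPM in healthy and 1690 to 2408 in vehicle livers, whereas that of Cyp2a was 941 to 1326 and 1555 to 2489 and that of Cyp2b 2.91 to 11.1 and 59.9 to 389. Cyp3a thus separated downwards and Cyp2b upwards, without overlap, while for Cyp2a the vehicle mice lay above the healthy ones and the I-BET151 mice, at 888, 1540, 937 and 778, all lay below the vehicle mice.

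**Figure D1:**
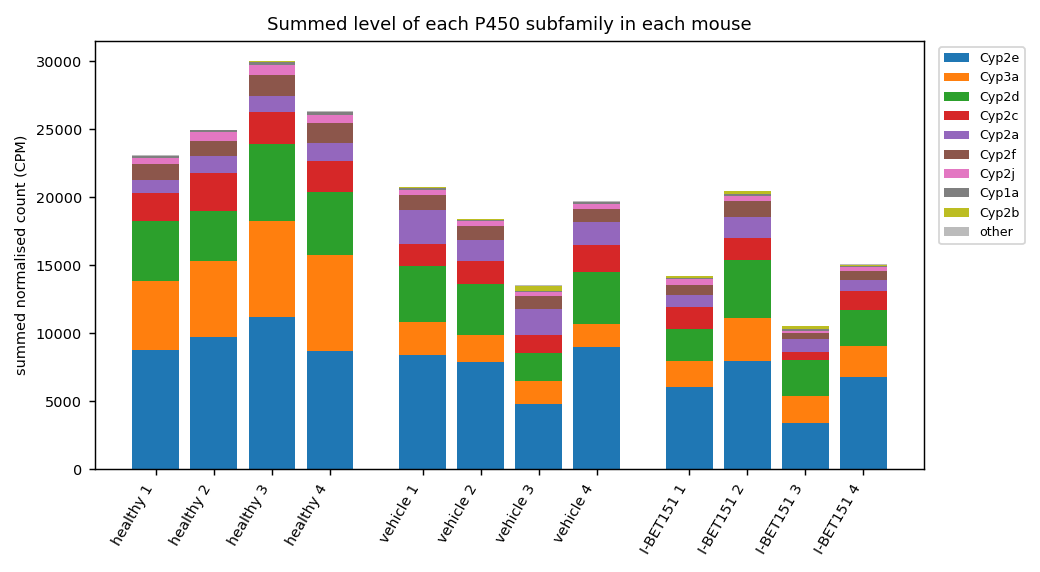
Stacked bars of the summed level of each P450 subfamily (CPM, axis from 0) in each of the 12 mice, with the smallest subfamilies joined as other. The healthy bars reach 23100 to 30020 CPM and the vehicle bars 13520 to 20770, the Cyp3a layer shrinking from a mean of 6194 to 1934 CPM.

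Per kilobase of exon, the scale on which levels of different genes can be compared, Cyp2e1 led with a mean of 3583 CPM per kb over the 12 mice. Cyp2d9, a male-predominant steroid hydroxylase, followed at 603, then Cyp2f2, the naphthalene-activating enzyme of periportal hepatocytes and airway, at 507, Cyp2d10 at 495, Cyp2d26 at 476, Cyp3a25 at 459 and Cyp3a11 at 423 CPM per kb. Cyp2a5, a coumarin hydroxylase, came next at 304, with Cyp2c50 at 178 and Cyp2a12 at 175. These means join the 3 groups. In healthy livers alone Cyp3a11 was at 902 CPM per kb, above Cyp2d9 at 813. The exon length joins all annotated exons of a gene, 5093 bases for Cyp3a11 and 2083 for Cyp3a25, and so can exceed that of the transcript made. At the other end, 10 of the 61 genes had too few counts to be tested. Cyp2b23, Cyp2c66, Cyp2j7, Cyp2j11, Cyp2j12 and Cyp2w1 had no count in any mouse, which allows up to 3 counts a library, or 0.0537 to 0.0903 CPM. Cyp2ab1, Cyp2b19, Cyp2c65 and Cyp2j13 had at most 14, 4, 2 and 1 counts in a mouse. The other 51 genes entered edgeR's test with all other genes, 16823 in total.

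Between vehicle and healthy livers, 5 of the 51 tested P450 genes were higher and 8 lower at a Benjamini-Hochberg adjusted p of at most 0.05 in edgeR's quasi-likelihood test. That is 9.8% higher against 5.72% of all genes tested, and 15.7% lower against 1.38% of all genes tested. The genes that rose were Cyp1b1, Cyp2a4, Cyp2a5, Cyp2b9 and Cyp2b13, and those that fell were Cyp1a2, Cyp2c29, Cyp2c40, Cyp2c68, Cyp2c69, Cyp3a11, Cyp3a41b and Cyp3a44. The median log2 fold change was -0.38 over the 51 genes (37 below 0) and 0.01 over all genes tested. All 4 vehicle mice lay above all healthy mice for 5 of the 51 genes (9.8%, against 14.2% of all genes tested) and below them for 15 (29.4%, against 12.2%). I-BET151 mouse 3 enters this comparison only through the filter, the scaling and the spread shared by the 3 groups. Without it, 8 were higher (12% of all genes tested were) and 19 lower (10.3% of all genes tested were), the 13 genes above among them. The further higher genes were Cyp2a22, Cyp2b10 and Cyp2c39, and the further lower ones Cyp2c23, Cyp2c67, Cyp2d26, Cyp2d40, Cyp2g1, Cyp2j5, Cyp2j9, Cyp2r1, Cyp3a16, Cyp3a25 and Cyp3a59. Of the 13 genes, 6 stayed called without healthy mouse 2 or healthy mouse 3, and 8 without vehicle mouse 1, 2 or 4. The number was 10 without vehicle mouse 3 or healthy mouse 4, and 12 without healthy mouse 1 or I-BET151 mouse 1. All 13 stayed without I-BET151 mouse 2 or 4. Cyp2j5 was added without healthy mouse 1 or I-BET151 mouse 2, Cyp2c67 without I-BET151 mouse 1 and Cyp3a16 without I-BET151 mouse 2. Cyp2a4, Cyp2b9, Cyp2b13, Cyp2c29, Cyp2c40 and Cyp3a11 passed in all 12 of these fits. The libraries were spread over 6 sequencing lanes, and lane 2 alone held both a healthy and a vehicle mouse, 1 of each, between which all 13 genes differed in the direction of the fit. With lane as a covariate only Cyp2a4 and Cyp2b13 passed.

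**Figure D2:**
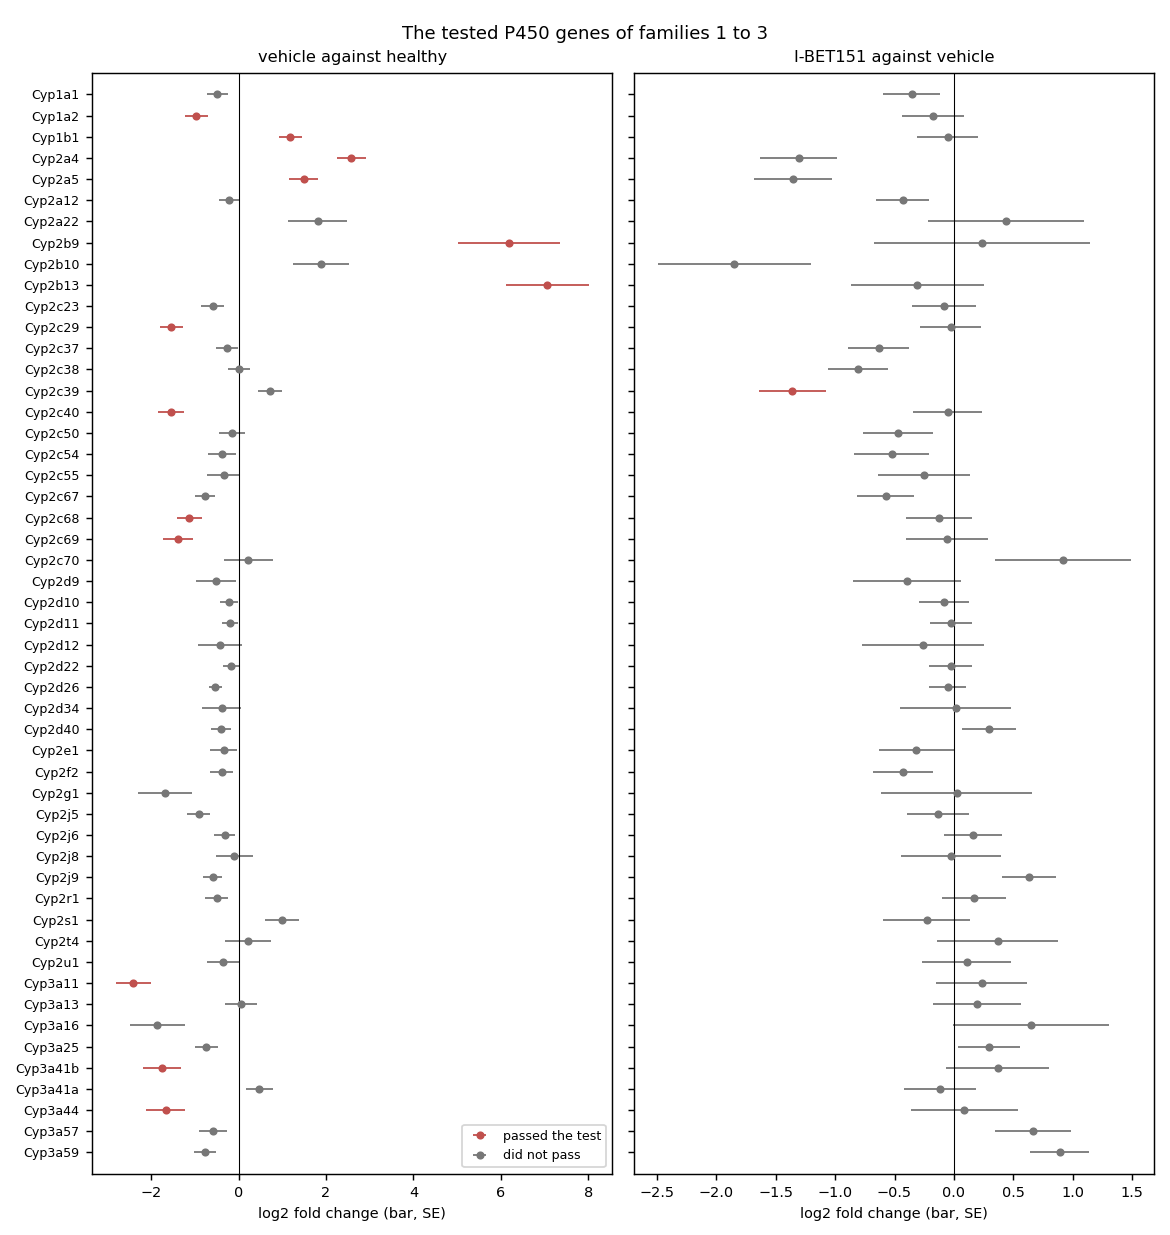
Log2 fold changes (points) with their SE (bars) of the 51 tested P450 genes, vehicle against healthy on the left and I-BET151 against vehicle on the right, the axes having different ranges, with genes past the adjusted p of 0.05 or 0.1 in red. On the left 13 genes are red, from Cyp3a11 at -2.42 to Cyp2b13 at 7.06, and on the right Cyp2c39 alone, at -1.36.

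On each chromosome that held called members, these had 1 direction in the reported fit, chromosomes 9 and 17 holding only 1 each. Of the 15 members on chromosome 7, where Cyp2a, Cyp2b, Cyp2f, Cyp2g, Cyp2s and Cyp2t genes stand together with Cyp2e1 and Cyp2r1 further along, 4 rose and 0 fell. All of the 15 Cyp2c genes are on chromosome 19, where 0 rose and 4 fell. The 9 Cyp3a genes and Cyp2w1 are on chromosome 5, with 0 rising and 3 falling. None of the 8 Cyp2d genes on chromosome 15 or the 8 Cyp2j genes on chromosome 4 passed, although the fitted value was below 0 for all 8 Cyp2d genes and for all 4 tested Cyp2j genes (1 and 2 lower at an unadjusted p below 0.05, and 1 of each in DESeq2). At an unadjusted p below 0.05, 9 members were higher (17.6%, against 15% of all genes tested) and 17 lower (33.3%, against 7.3%). Without I-BET151 mouse 3 the directions mixed on chromosomes 7 and 19, where Cyp2g1 and Cyp2r1 passed as lower and Cyp2c39 as higher. DESeq2 on all mice also called Cyp2g1 lower.

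Cyp3a11 (ENSMUSG00000056035, chr5:145854426-145879964, GRCm38) had the largest fall among the genes that passed. It measured 3745, 4078, 5225 and 5335 CPM in the 4 healthy mice, 1066, 814, 828 and 738 in the vehicle mice and 826, 2044, 426 and 753 in the I-BET151 mice. Healthy and vehicle mice did not overlap, and the I-BET151 mice reached from below the vehicle mice to above them but not to the healthy range. The log2 fold change of vehicle against healthy was -2.42 ± 0.40 SE, 5.33-fold lower, with an adjusted p of 0.00339 (edgeR). Cyp3a41b and Cyp3a44, female-predominant steroid hydroxylases that are low in these male livers, fell as well. Cyp3a41b (ENSMUSG00000075552, chr5:145558664-145584730) measured 7.64, 9.30, 10.5 and 9.98 CPM in healthy and 2.57, 2.36, 4.26 and 1.87 CPM in vehicle mice, a log2 fold change of -1.75 ± 0.43 SE (edgeR adjusted p = 0.0275). Cyp3a44 (ENSMUSG00000054417, chr5:145773983-145805874) measured 3.47, 3.66, 4.68 and 4.6 CPM in healthy and 1.03, 1.05, 1.90 and 1.17 in vehicle mice, a log2 fold change of -1.67 ± 0.44 SE (edgeR adjusted p = 0.0386). Of the 101-base stretches in Cyp3a41b transcripts, 88.1% also occur in Cyp3a41a. The authors counted only uniquely mapped reads, so reads that fitted both copies were left out. The counts of these copies thus rest on the reads that tell them apart and are uncertain. Cyp3a41a had 0.489 to 1.06 CPM in healthy and 0.625 to 1.37 in vehicle mice and did not pass (edgeR adjusted p = 0.397). Without healthy mouse 2, 3 or 4 or vehicle mouse 1, 2 or 4, neither Cyp3a41b nor Cyp3a44 passed, and Cyp3a44 was also lost without healthy mouse 1 or vehicle mouse 3, with edgeR adjusted p of up to 0.0872 and 0.106.

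The remaining Cyp3a genes did not pass. Cyp3a25 measured 992, 1198, 1389 and 1353 CPM in healthy and 1024, 757, 537 and 623 in vehicle mice (edgeR adjusted p = 0.106, and 0.0141 without I-BET151 mouse 3). Cyp3a16, another female-predominant copy, was near the detection limit, with 0.447, 0.556, 0.727 and 0.805 against 0.168, 0.0191, 0.329 and 0.17 CPM (edgeR adjusted p = 0.0926, and 0.0471 without I-BET151 mouse 3). Cyp3a13, which is also made in the gut, was at 247 to 339 CPM in healthy and 264 to 324 in vehicle livers, with a log2 fold change of 0.05 ± 0.37 SE (edgeR adjusted p = 0.957). Vehicle mice overlapped healthy mice for Cyp3a13, which lies at chr5:137892932-137921619, apart from the other Cyp3a genes of the chromosome.

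The 250 bases before the RefSeq transcript start of the 3 Cyp3a genes that fell are shown to let their similarity be seen, 5′ to 3′ on the gene's strand (GRCm38.p6). Capitals mark AGGTCA or its reverse complement TGACCT, the hexamer recognised by many nuclear receptors, searched on both strands. The windows are chr5:145879855-145880104 on the minus strand for Cyp3a11, chr5:145584731-145584980 on the minus strand for Cyp3a41b and chr5:145805875-145806124 on the minus strand for Cyp3a44. That of Cyp3a11 ends inside the gene as GENCODE draws it, whereas those of Cyp3a41b and Cyp3a44 end at the edge of their genes.
Cyp3a11: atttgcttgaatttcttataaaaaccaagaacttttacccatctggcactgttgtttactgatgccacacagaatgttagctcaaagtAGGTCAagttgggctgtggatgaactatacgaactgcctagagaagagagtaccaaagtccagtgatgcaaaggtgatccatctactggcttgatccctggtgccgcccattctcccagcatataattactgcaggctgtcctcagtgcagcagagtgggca
Cyp3a41b: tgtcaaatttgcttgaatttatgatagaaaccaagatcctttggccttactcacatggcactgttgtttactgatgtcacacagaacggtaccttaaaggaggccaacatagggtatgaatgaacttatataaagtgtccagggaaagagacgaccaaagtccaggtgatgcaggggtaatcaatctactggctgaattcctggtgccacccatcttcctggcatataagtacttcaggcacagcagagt
Cyp3a44: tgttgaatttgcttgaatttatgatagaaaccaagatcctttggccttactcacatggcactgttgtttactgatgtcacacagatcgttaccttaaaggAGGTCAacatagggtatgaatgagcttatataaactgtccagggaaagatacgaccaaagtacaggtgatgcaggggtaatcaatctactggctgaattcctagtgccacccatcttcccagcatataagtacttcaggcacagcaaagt
The windows of Cyp3a41b and Cyp3a44 are identical at 237 of 250 bases (94.8%). Cyp3a11 has AGGTCA beginning at position -162 and Cyp3a44 at -150, counted from the transcript start, and Cyp3a41b has none in this window. Of the windows of this length before all 32851 RefSeq starts, 14% hold the hexamer, as do 16 of the 56 windows of the 53 P450 genes with an entry (28.6%), some genes having more than 1 start. A match of letters is a description and not evidence of binding.

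Among the Cyp2c genes, many of which oxidize arachidonic acid and drugs, Cyp2c29 (ENSMUSG00000003053, chr19:39269405-39330713) separated the groups clearly. It measured 408, 522, 373 and 402 CPM in the healthy mice, 152, 175, 109.6 and 147 in vehicle and 182, 152, 70.1 and 168 in I-BET151. Every STAM mouse was below every healthy mouse, and vehicle against healthy gave a log2 fold change of -1.55 ± 0.26 SE, 2.92-fold lower (edgeR adjusted p = 0.00355). Cyp2c40 (ENSMUSG00000025004, chr19:39767071-39812814), which oxidizes arachidonic acid, measured 20.8, 41.3, 27.4 and 17.9 CPM in healthy and 6.61, 7.83, 11.99 and 10.3 in vehicle mice. Its log2 fold change was -1.54 ± 0.30 SE (edgeR adjusted p = 0.00741). Cyp2c68 (ENSMUSG00000074882, chr19:39688834-39741054) measured 178, 275, 171 and 149.8 CPM in healthy and 65.5, 83.2, 126 and 79.4 in vehicle mice, a log2 fold change of -1.13 ± 0.28 SE (edgeR adjusted p = 0.0278). Cyp2c69 (ENSMUSG00000092008, chr19:39842814-39886799) measured 11.0, 26.9, 11.98 and 8.05 CPM in healthy and 4.01, 5.03, 7.08 and 6.11 in vehicle mice, a log2 fold change of -1.38 ± 0.34 SE (edgeR adjusted p = 0.0286). In each of these genes healthy mouse 2 was the highest of all 12 mice, and none of the 4 healthy mice overlapped the vehicle mice. Without healthy mouse 2 or 3 or vehicle mouse 1, 2 or 4, Cyp2c68 and Cyp2c69 no longer passed, and Cyp2c69 was also lost without vehicle mouse 3, with edgeR adjusted p over all 12 such fits of up to 0.1 and 0.0914. Cyp2c40, Cyp2c67, Cyp2c68 and Cyp2c69 share sequence, 34.0%, 23.3%, 19.6% and 35.1% of their 101-base stretches occurring in another gene. With only uniquely mapped reads counted, the counts of these genes rest on part of each transcript and may not be fully separate. Cyp2c50, the most abundant of the subfamily, measured 490.3, 637, 685 and 647 CPM in healthy and 552, 564, 379.9 and 705 in vehicle mice, with overlapping groups and no call (edgeR adjusted p = 0.793).

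The genes that rose came mainly from the Cyp2a and Cyp2b cluster. Cyp2a4 (ENSMUSG00000074254, chr7:26307169-26315088), a female-predominant testosterone 15-alpha-hydroxylase, measured 17.4, 26.7, 18.5 and 27.9 CPM in healthy mice, 125, 79.4, 239.6 and 95.1 in vehicle mice and 51.9, 79.8, 42.9 and 43.6 in I-BET151 mice. All 8 STAM mice lay above all 4 healthy mice, and vehicle against healthy gave a log2 fold change of 2.58 ± 0.34 SE, 5.96-fold higher (edgeR adjusted p = 0.000738). Cyp2a5 (ENSMUSG00000005547, chr7:26835305-26843548), its close relative that hydroxylates coumarin, measured 323, 409, 311 and 500.0 CPM in healthy mice, 1618, 820.0, 921 and 961 in vehicle mice and 324, 744, 353 and 269 in I-BET151 mice. Here the vehicle mice stood above both other groups, whose values overlapped, and vehicle against healthy gave a log2 fold change of 1.49 ± 0.33 SE, 2.80-fold higher (edgeR adjusted p = 0.0159). Cyp2a5 did not pass without healthy mouse 2 or healthy mouse 3 (edgeR adjusted p of up to 0.0653). Of the 101-base stretches of Cyp2a4 and Cyp2a5, 10.9% and 11.8% occur in another gene, most of them in each other. Cyp2a12 measured 584, 746, 799.5 and 781 CPM in healthy and 672, 617, 613 and 588 in vehicle mice and did not pass (edgeR adjusted p = 0.599), and Cyp2a22 was at 8.58 to 40.8 CPM in healthy and 36.6 to 139.8 in vehicle mice (edgeR adjusted p = 0.13, and 0.0238 without I-BET151 mouse 3).

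Cyp2b9 (ENSMUSG00000040660, chr7:26173411-26210661), a female-predominant enzyme, measured 0.447, 6.67, 0.0581 and 0.201 CPM in the healthy mice, 69.6, 37.2, 374 and 60.1 in vehicle and 137, 162, 239 and 96.9 in I-BET151. It went from near absence in 3 of 4 healthy livers to at least 37.2 CPM in all 8 STAM livers, with vehicle mouse 3 highest. The log2 fold change of vehicle against healthy was 6.19 ± 1.16 SE (edgeR adjusted p = 0.00665), and the fold ranged from 4.91 to 9.06 on the log2 scale when each mouse was left out, the lowest without vehicle mouse 3 and the highest without healthy mouse 2. Cyp2b13 (ENSMUSG00000040583, chr7:26061497-26096197), also female-predominant, had 0, 2, 2 and 0 counts in the healthy mice and 90, 63, 524 and 91 in the vehicle mice, or 2.16, 1.2, 10.1 and 1.93 CPM. The summed counts of 4 and 768 give a ratio of 153 after scaling to library size (exact 95% interval 59.6 to 564, counting error only), and edgeR's adjusted p was 0.000888. Its I-BET151 values of 3.06, 3.25, 4.41 and 1.75 CPM overlapped those of vehicle. Cyp2b10, the classical target of CAR, measured 5.43, 4.37, 2.79 and 3.71 CPM in healthy mice, 24.6, 21.5, 5.26 and 9.06 in vehicle mice and 0.937, 8.19, 1.11 and 6.78 in I-BET151 mice. Only vehicle mice 1, 2 and 4 exceeded every healthy mouse, and the log2 fold change of 1.89 ± 0.64 SE did not pass (edgeR adjusted p = 0.0957, and 0.0347 without I-BET151 mouse 3).

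The same 250-base windows of the 4 genes of chromosome 7 that rose are shown because they form 2 near-identical pairs, with the hexamer again in capitals (GRCm38.p6). They are chr7:26306942-26307191 on the plus strand for Cyp2a4, chr7:26835089-26835338 on the plus strand for Cyp2a5, chr7:26173159-26173408 on the plus strand for Cyp2b9 and chr7:26061245-26061494 on the plus strand for Cyp2b13, those of Cyp2a4 and Cyp2a5 ending just inside the genes as GENCODE draws them.
Cyp2a4: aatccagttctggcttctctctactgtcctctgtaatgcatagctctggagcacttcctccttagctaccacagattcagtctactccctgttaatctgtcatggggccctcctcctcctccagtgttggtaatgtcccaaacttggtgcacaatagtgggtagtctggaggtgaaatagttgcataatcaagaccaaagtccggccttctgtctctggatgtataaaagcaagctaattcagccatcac
Cyp2a5: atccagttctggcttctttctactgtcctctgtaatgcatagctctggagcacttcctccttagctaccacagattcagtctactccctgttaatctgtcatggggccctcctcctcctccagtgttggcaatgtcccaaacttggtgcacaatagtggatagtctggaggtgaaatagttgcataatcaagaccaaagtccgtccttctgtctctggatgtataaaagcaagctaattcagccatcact
Cyp2b9: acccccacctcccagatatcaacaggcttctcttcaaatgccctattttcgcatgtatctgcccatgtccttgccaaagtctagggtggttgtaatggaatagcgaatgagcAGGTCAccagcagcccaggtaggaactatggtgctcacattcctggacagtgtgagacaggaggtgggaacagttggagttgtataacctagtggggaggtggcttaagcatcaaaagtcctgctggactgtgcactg
Cyp2b13: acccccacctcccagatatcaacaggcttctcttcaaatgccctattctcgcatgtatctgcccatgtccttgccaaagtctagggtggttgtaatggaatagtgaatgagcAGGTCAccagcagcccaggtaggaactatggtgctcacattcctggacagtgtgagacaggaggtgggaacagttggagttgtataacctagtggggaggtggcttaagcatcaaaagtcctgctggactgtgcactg
The windows of Cyp2b9 and Cyp2b13 are identical at 248 of 250 bases (99.2%), and both hold the hexamer at -138. Those of Cyp2a4 and Cyp2a5 are identical at 245 of 249 bases (98.4%) once shifted by 1 base, hold no AGGTCA in either orientation, and have TATAAA on the gene's strand at -28 and -29. TATAAA occurs on the gene's strand in 7.59% of all such windows and in 19 of the 56 of P450 genes (33.9%). The 2 members of each pair had different levels, Cyp2b9 at a mean of 72.1 and Cyp2b13 at 2.06 CPM per kb in vehicle livers, and Cyp2a5 at 521 and Cyp2a4 at 77.6.

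The family 1 genes parted. Cyp1a2 (ENSMUSG00000032310, chr9:57676937-57683703), the caffeine-oxidizing enzyme of hepatocytes, measured 182, 179.9, 261 and 237 CPM in healthy mice, 123.3, 112, 60.1 and 142 in vehicle mice and 98.2, 136, 82.1 and 70.5 in I-BET151 mice. All STAM mice lay below the healthy mice, and vehicle against healthy gave a log2 fold change of -0.97 ± 0.26 SE, 1.97-fold lower (edgeR adjusted p = 0.0394). That call was lost without healthy mouse 2, 3 or 4, vehicle mouse 1, 2 or 3 or I-BET151 mouse 1, with edgeR adjusted p of up to 0.119. Cyp1b1 (ENSMUSG00000024087, chr17:79701537-79715061), which is known mainly from tissues outside the liver and from non-parenchymal liver cells, measured 3.32, 2.15, 1.57 and 2.47 CPM in healthy mice, 4.399, 5.56, 5.14 and 6.45 in vehicle mice and 4.41, 3.31, 6.02 and 6.99 in I-BET151 mice. Vehicle and healthy mice did not overlap, with a log2 fold change of 1.18 ± 0.26 SE, 2.26-fold higher (edgeR adjusted p = 0.0166). It passed in 9 of those 12 fits, and not without healthy mouse 2, healthy mouse 3 or vehicle mouse 4 (edgeR adjusted p of up to 0.0602). The summed level of the 4 stellate cell and fibroblast markers was 34.1 to 44.5 CPM in healthy and 42.0 to 67.8 in vehicle mice, with 1 of 4, Col1a1, higher at a log2 fold change of 1.14 ± 0.28 SE (edgeR adjusted p = 0.0268), and none of the 4 at 0. Col1a1 did not pass without healthy mouse 2, 3 or 4 or vehicle mouse 2, 3 or 4 (edgeR adjusted p of up to 0.0871), and without I-BET151 mouse 3 Col3a1 passed as higher and Lrat as lower too. The part of these cells and of the macrophages in the Cyp1b1 result was not tested. Cyp1a1, the classical AHR target, was at 1.19 to 2.07 CPM in healthy and 0.928 to 1.44 in vehicle mice (edgeR adjusted p = 0.246). Of 3 further AHR targets, Nqo1, a quinone reductase that is also a target of NRF2, rose with a log2 fold change of 1.46 ± 0.25 SE (edgeR adjusted p = 0.00428), and Tiparp and Ahrr did not pass (edgeR adjusted p = 0.446 and 0.781).

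**Figure D3:**
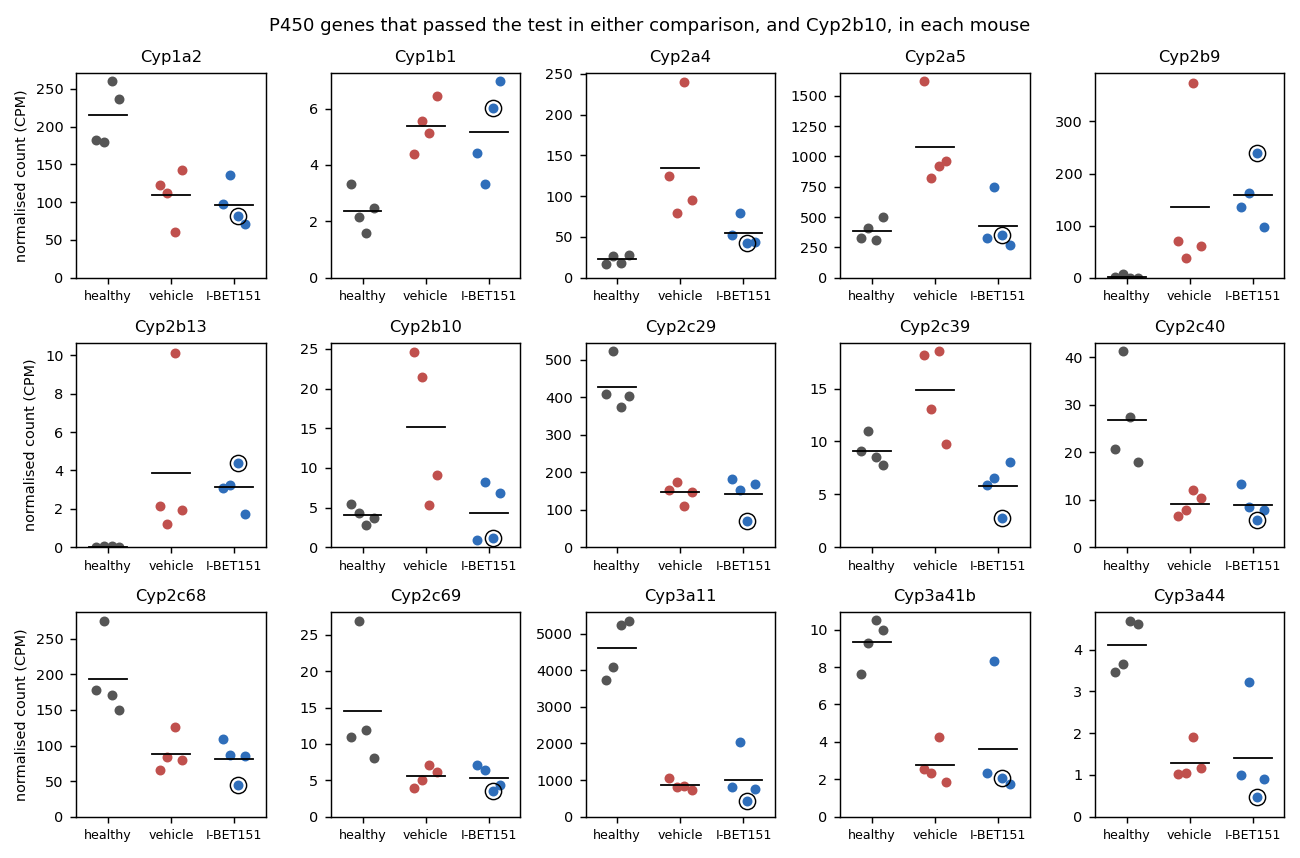
Normalised count (CPM, linear axes from 0) of the 14 P450 genes that passed in either comparison, and of Cyp2b10, in each of the 4 healthy (grey), vehicle (red) and I-BET151 (blue) mice, with a line at each group mean and I-BET151 mouse 3 ringed. Cyp3a11 lies at 3745 to 5335 CPM in healthy and 738 to 1066 in vehicle mice, and Cyp2c39 at 9.72 to 18.6 in vehicle and 2.80 to 8.06 in I-BET151 mice.

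Several of the most abundant P450s did not pass the test. Cyp2e1 measured 8765, 9703, 11210 and 8692 CPM in healthy mice, 8425, 7923, 4837 and 8993 in vehicle mice and 6060, 7970, 3418 and 6786 in I-BET151 mice, and its log2 fold change of vehicle against healthy was -0.35 ± 0.31 SE (edgeR adjusted p = 0.556). Cyp2f2 measured 1149, 1128, 1570 and 1446 CPM in healthy and 1096, 1011, 953 and 971 in vehicle mice, which did not overlap, at a log2 fold change of -0.39 ± 0.25 SE (edgeR adjusted p = 0.395). Cyp2d26 was at 1061 to 1132 CPM in healthy and 722 to 785 in vehicle mice, a log2 fold change of -0.53 ± 0.16 SE just outside the threshold (edgeR adjusted p = 0.0582, and 0.00413 without I-BET151 mouse 3). The same held for Cyp2j5, an arachidonic acid epoxygenase of liver and kidney, at 378 to 599 and 220.2 to 301 CPM, a log2 fold change of -0.91 ± 0.26 SE (edgeR adjusted p = 0.053, and 0.00337 without I-BET151 mouse 3). Cyp2r1, which 25-hydroxylates vitamin D, was at 4.87 to 5.88 and 3.32 to 4.19 CPM, a log2 fold change of -0.51 ± 0.27 SE (edgeR adjusted p = 0.287, and 0.00987 without that mouse). Cyp2d10 measured 843 to 1035 CPM in healthy and 594 to 894 in vehicle mice with overlap (edgeR adjusted p = 0.562).

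Female-predominant P450s moved in both directions in these male livers. Of 9 such members tested, 3 rose (Cyp2a4, Cyp2b9 and Cyp2b13) and 4 fell (Cyp2c40, Cyp2c69, Cyp3a41b and Cyp3a44), with a median log2 fold change of -1.38 against 0.01 over all genes tested (5 fell without I-BET151 mouse 3, Cyp3a16 being the fifth). Their summed level was 61.6, 116, 74.7 and 70.5 CPM in healthy and 212, 135, 650.4 and 178 in vehicle mice, Cyp2b9 and Cyp2a4 making up most of the vehicle sum. Outside the family, Sult2a1, a steroid sulfotransferase, had summed counts of 6 in healthy and 79 in vehicle mice, a ratio of 10.5 after scaling (exact 95% interval 4.62 to 29.5, edgeR adjusted p = 0.019). Further such genes, Cux2 and Sult3a1, did not pass (edgeR adjusted p = 0.208 and 0.408). A1bg had too few counts to be tested, with means of 0.237 CPM in healthy and 0.149 in vehicle mice. Of the male-predominant genes, Cyp2d9 measured 2013, 1339, 3059 and 2230 CPM in healthy mice, 2052, 1657, 399 and 1915 in vehicle mice and 825, 2024, 793 and 930.2 in I-BET151 mice and did not pass (edgeR adjusted p = 0.542). Its vehicle values split, 3 mice lying within the healthy range and vehicle mouse 3 far below it. That mouse also had the highest Cyp2a4, Cyp2b9 and Cyp2b13 of the vehicle group, and the lowest Hsd3b5, Slco1a1 and Elovl3. Of 7 male-predominant genes outside families 1 to 3, Hsd3b5, a steroid dehydrogenase, and Slco1a1, an organic anion carrier, fell, with log2 fold changes of -3.06 ± 0.75 SE and -2.28 ± 0.49 SE (edgeR adjusted p = 0.0271 and 0.014), and the median was -0.67. Sult2a1 did not pass without healthy mouse 2, 3 or 4 or vehicle mouse 3, nor Hsd3b5 without healthy mouse 3 or 4 or vehicle mouse 1 or 3 (edgeR adjusted p of up to 0.0651 and 0.102). Without vehicle mouse 3, Cyp2a4, Cyp2b9, Cyp2b13, Cyp2c40 and Cyp3a41b still passed, and Cyp2c69 and Cyp3a44 did not.

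**Figure D4:**
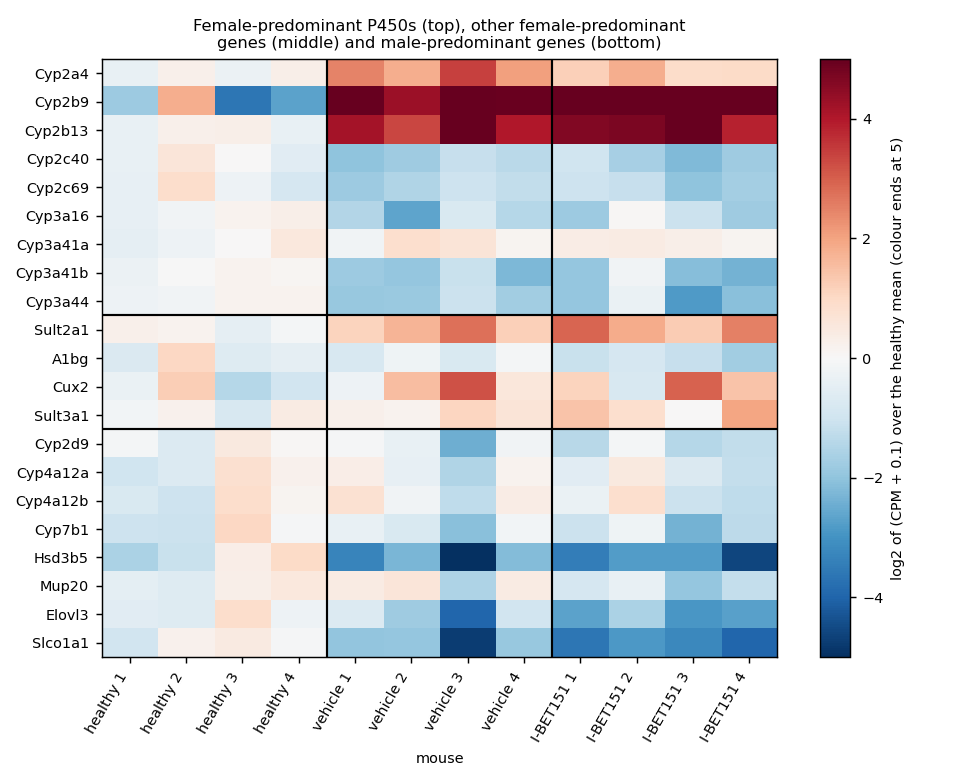
Colour map of log2 of CPM plus 0.1 over the healthy mean plus 0.1, for female-predominant P450s (top), further female-predominant genes (middle) and male-predominant genes (bottom), by mouse, the colour ending at 5. Cyp2a4, Cyp2b9 and Cyp2b13 are red in all 8 STAM mice while Cyp2c40, Cyp2c69 and Cyp3a44 are blue in the 4 vehicle mice, and vehicle mouse 3, at 399 CPM of Cyp2d9, is the lowest vehicle mouse for Cyp2d9, Hsd3b5, Slco1a1 and Elovl3.

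Grouped by the receptors that induce them, P450s did not move as a block either. Of 10 tested genes inducible through CAR or PXR, Cyp2a5 rose, Cyp2c29 and Cyp3a11 fell and 7 did not pass. Of all genes tested, 5.72% were called higher and 1.38% lower. The median of the log2 fold changes was -0.31 for the 10 genes, and 0.01 for every tested gene together. Without I-BET151 mouse 3, 2 of the 10 were higher and 3 lower (12% and 10.3% of all genes tested were). Of 11 tested P450s listed as oxidizing arachidonic acid, Cyp2c29 and Cyp2c40 fell (1.38% of all genes tested were lower), and the median was -0.33. Without I-BET151 mouse 3, 1 was higher and 4 lower (12% and 10.3% of all genes tested were). A further name planned for this list, Cyp2c44, matched no symbol of the annotation and is not counted. Other names of that gene were not searched, so it may be among the members under another symbol. Of the 8 P450s found mainly around the central vein, Cyp1a2, Cyp2c29 and Cyp3a11 fell, Cyp2a5 rose and Cyp2e1, Cyp2c37, Cyp2c50 and Cyp2c54 did not pass, with a median of -0.37. The periportal Cyp2f2 had -0.39, close to that median. Zonation genes outside the family did not pass either, 0 of 5 pericentral (median -0.34) and 0 of 5 periportal (median -0.41). Without I-BET151 mouse 3, the pericentral genes had 1 higher and 2 lower and the periportal genes 1 lower (12% of all genes tested were higher and 10.3% lower). At an unadjusted p below 0.05 the pericentral genes had 1 higher and 2 lower and the periportal genes 2 lower (15% and 7.3% of all genes tested). DESeq2 called 1 pericentral gene higher and 2 lower, and 0 periportal genes. Glul, the glutamine synthetase of the innermost pericentral cells, was at 959 to 1194 CPM in healthy and 1125 to 1381 in vehicle mice.

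Between I-BET151 and vehicle livers, 1 of the 51 P450 genes, Cyp2c39, was lower and 0 were higher at an adjusted p of at most 0.1 in edgeR's test. The shares were 1.96% lower against 0.256% of all genes tested, and 0 higher against 0.0951%. At an unadjusted p below 0.05, 7 members were lower (13.7%, against 4.26% of all genes tested) and 2 higher (3.92%, against 4.42%). DESeq2 called 3 lower (Cyp2a4, Cyp2a5 and Cyp2c39) and 1 higher (Cyp3a59). The median log2 fold change of the members was -0.05, and 0.02 over all genes tested. Without I-BET151 mouse 3 the count was again 1 lower (1.46% of all genes tested were) and 0 higher (0.914% of all genes tested were). All I-BET151 mice lay below all vehicle mice for Cyp2a5, Cyp2c37 and Cyp2c39 (5.88%, against 2.63% of all genes tested) and above them for Cyp3a59 (1.96%, against 2.41%).

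Cyp2c39 (ENSMUSG00000025003, chr19:39510862-39568529), which hydroxylates retinoic acid and arachidonic acid, measured 18.1, 13.1, 18.6 and 9.72 CPM in vehicle and 5.89, 6.51, 2.80 and 8.06 in I-BET151 mice, against 9.07, 11.0, 8.52 and 7.82 in healthy mice. Its log2 fold change was -1.36 ± 0.28 SE, 2.56-fold lower (edgeR adjusted p = 0.0875), and -1.12 ± 0.21 SE without I-BET151 mouse 3 (edgeR adjusted p = 0.0343). Among fits lacking 1 mouse, the call was kept without I-BET151 mouse 3 or 4 and lost in the other 10 fits, at an edgeR adjusted p of up to 0.241. Within the lanes that held both groups, lanes 2, 6 and 7 with 1 mouse of each, the I-BET151 mouse was lower in 3 of 3. In vehicle against healthy livers its log2 fold change was 0.71 ± 0.28 SE (edgeR adjusted p = 0.144), and without I-BET151 mouse 3 it passed as higher at 0.68 ± 0.19 SE (edgeR adjusted p = 0.0249).

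The windows of Cyp2c39, the 1 gene called after I-BET151, and of Cyp2c29, which fell in vehicle livers, are shown because the 2 genes lie in the same cluster with only Cyp2c38 between them and were called in different comparisons (GRCm38.p6). They are chr19:39286835-39287084 on the plus strand for Cyp2c29, whose RefSeq start lies inside the gene as GENCODE draws it, and chr19:39510572-39510821 on the plus strand for Cyp2c39, which has a further RefSeq start upstream.
Cyp2c29: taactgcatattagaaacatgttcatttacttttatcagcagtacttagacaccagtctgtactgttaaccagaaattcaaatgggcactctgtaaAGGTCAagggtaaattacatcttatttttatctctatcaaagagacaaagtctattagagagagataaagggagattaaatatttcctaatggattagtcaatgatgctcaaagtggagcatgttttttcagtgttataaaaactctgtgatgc
Cyp2c39: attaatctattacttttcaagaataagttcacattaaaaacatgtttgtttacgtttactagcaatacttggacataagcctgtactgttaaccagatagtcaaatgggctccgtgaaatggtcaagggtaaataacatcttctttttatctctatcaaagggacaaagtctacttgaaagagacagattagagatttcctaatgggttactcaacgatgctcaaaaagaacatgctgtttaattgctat
Cyp2c29 holds the hexamer, in capitals, at -154 and Cyp2c39 holds none in this window. Between the STAM groups Cyp2c29 measured 146 ± 27.1 CPM in vehicle and 143 ± 50.05 in I-BET151 mice (SD, n = 4).

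Cyp2a5 and Cyp2a4, which rose in vehicle livers, were lower after I-BET151 in DESeq2 but did not pass in edgeR. Cyp2a5 measured 1080 ± 364 CPM in vehicle mice and 422 ± 217 in I-BET151 mice (SD, n = 4), beside 386 ± 87.8 in healthy livers, a log2 fold change of -1.35 ± 0.33 SE (edgeR adjusted p = 0.154). All 4 I-BET151 mice were below all 4 vehicle mice, and without I-BET151 mouse 3 the log2 fold change was -1.27 ± 0.35 SE (edgeR adjusted p = 0.107). Cyp2a4 measured 135 ± 72.4 and 54.6 ± 17.3 CPM, beside 22.6 ± 5.43 in healthy livers, a log2 fold change of -1.31 ± 0.32 SE (edgeR adjusted p = 0.163). I-BET151 mouse 2, at 79.8 CPM, overlapped vehicle mouse 2, at 79.4. Without I-BET151 mouse 2 both genes passed as lower, at log2 fold changes of -1.78 for Cyp2a5 and -1.55 for Cyp2a4, and Cyp2c39 did not. Cyp2b10 had the largest fitted difference, -1.85 ± 0.64 SE, with mice of the 2 groups overlapping and no call (edgeR adjusted p = 0.401). Cyp2b9 was at 0.23 ± 0.91 SE and Cyp2b13 at -0.31 ± 0.56 SE on the log2 scale (edgeR adjusted p = 0.978 and 0.934), and without vehicle mouse 3 these were 1.51 and 0.82, still without a call. Cyp2c37, a pericentral Cyp2c, measured 274, 288, 257 and 342 CPM in vehicle and 207, 219.7, 87.9 and 234 in I-BET151 mice (log2 fold change -0.63 ± 0.26 SE, edgeR adjusted p = 0.489). Cyp3a59, the member above in every I-BET151 mouse, measured 49.6, 36.3, 37.9 and 30.9 CPM in vehicle and 54.7, 58.0, 117 and 56.9 in I-BET151 mice (log2 fold change 0.89 ± 0.25 SE, edgeR adjusted p = 0.238).

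None of the 8 P450s that edgeR called lower in vehicle livers passed between I-BET151 and vehicle livers in edgeR's test or in DESeq2. Cyp3a59, which DESeq2 called higher in I-BET151 livers, was called lower in vehicle than healthy livers by DESeq2 and, without I-BET151 mouse 3, by edgeR (edgeR adjusted p = 0.0778, and 0.00444 without that mouse). Of the 9 Cyp3a genes, 8 had fitted values above 0, with a median log2 fold change of 0.30. Cyp3a11 was at 862 ± 142 CPM in vehicle mice and 1012 ± 709.8 in I-BET151 mice (SD, n = 4), a log2 fold change of 0.23 ± 0.38 SE (edgeR adjusted p = 0.924). I-BET151 mouse 2 had the highest Cyp3a11, Cyp3a41b and Cyp3a44 of its group, at 2044, 8.31 and 3.22 CPM, and without it the fitted value of Cyp3a11 was -0.37. The mean levels in vehicle and I-BET151 livers were 9.197 and 8.86 CPM for Cyp2c40, 88.4 and 81.2 for Cyp2c68, 5.56 and 5.35 for Cyp2c69, and 109 and 96.6 for Cyp1a2. Both comparisons use the same 4 vehicle mice, so their values are set side by side and not correlated.

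Genes that serve the P450 system were mostly not called. Por, which passes electrons to all of these enzymes, measured 850.4, 1012, 1013 and 709 CPM in healthy mice, 735, 929, 743 and 920.1 in vehicle mice and 868, 1161, 548 and 1362 in I-BET151 mice, with overlap throughout (edgeR adjusted p = 0.848 and 0.858). Of the 7 redox partners, Pgrmc2, a heme-binding membrane protein, fell in vehicle livers (54.0 to 61.3 CPM in healthy and 34.6 to 39.2 in vehicle mice, log2 fold change -0.62 ± 0.16 SE, edgeR adjusted p = 0.0356) and 6 did not pass. Its call was lost without any 1 of the 8 healthy and vehicle mice (edgeR adjusted p of up to 0.117). Alas1, the rate-limiting enzyme of heme synthesis, rose. It measured 368, 741, 503 and 346 CPM in healthy mice, 813, 1150, 981 and 1319 in vehicle mice and 975, 1287, 774 and 1072 in I-BET151 mice. Every STAM mouse exceeded every healthy mouse, with a log2 fold change of vehicle against healthy of 1.12 ± 0.27 SE, 2.18-fold higher (edgeR adjusted p = 0.0234). That call was lost without healthy mouse 1, 3 or 4 or vehicle mouse 2, 3 or 4 (edgeR adjusted p of up to 0.0901) and with the lane covariate (0.101). The 7 later enzymes of heme synthesis did not pass, nor did 3 genes of heme breakdown (Hmox1 at an edgeR adjusted p of 0.0972). Without I-BET151 mouse 3, Cpox, Fech and Urod passed as lower, Hmox1 as higher, and Cyb5r1, a cytochrome b5 reductase, as higher.

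Among 14 regulators, 1 passed: Nr0b2, the corepressor SHP, fell from 51.4, 33.8, 56.2 and 46.9 CPM in healthy to 21.7, 12.4, 21.1 and 25.1 in vehicle mice, a log2 fold change of -1.23 ± 0.32 SE (edgeR adjusted p = 0.0328). That call was lost without healthy mouse 1, 3 or 4 or vehicle mouse 1, 2 or 3 (edgeR adjusted p of up to 0.0929). At an unadjusted p below 0.05 and in DESeq2 2 regulators were lower, and without I-BET151 mouse 3 Ppara, the fatty acid-sensing receptor, passed as lower (edgeR adjusted p = 0.0586, and 0.0154 without that mouse). Nr1i2 was at 118 to 138 CPM in healthy and 112 to 157 in vehicle mice (edgeR adjusted p = 0.993), and Ahr at 43.3 to 52.2 and 37.0 to 44.4 (edgeR adjusted p = 0.317). Nr1i3 was at 118 to 162 and 119.6 to 138 CPM (edgeR adjusted p = 0.74), and in the I-BET151 mice at 117, 141, 422 and 96.4, mouse 3 standing apart again. The median log2 fold change over the regulators was -0.16 in vehicle against healthy and -0.03 in I-BET151 against vehicle livers. No redox partner, heme gene or regulator passed between I-BET151 and vehicle livers in edgeR's test at an adjusted p of 0.1. At an unadjusted p below 0.05 there were 1 higher and 1 lower of the 7 redox partners, 0 of the 11 heme genes and 1 lower of the 14 regulators, and DESeq2 called 1 redox partner higher.

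**Figure D5:**
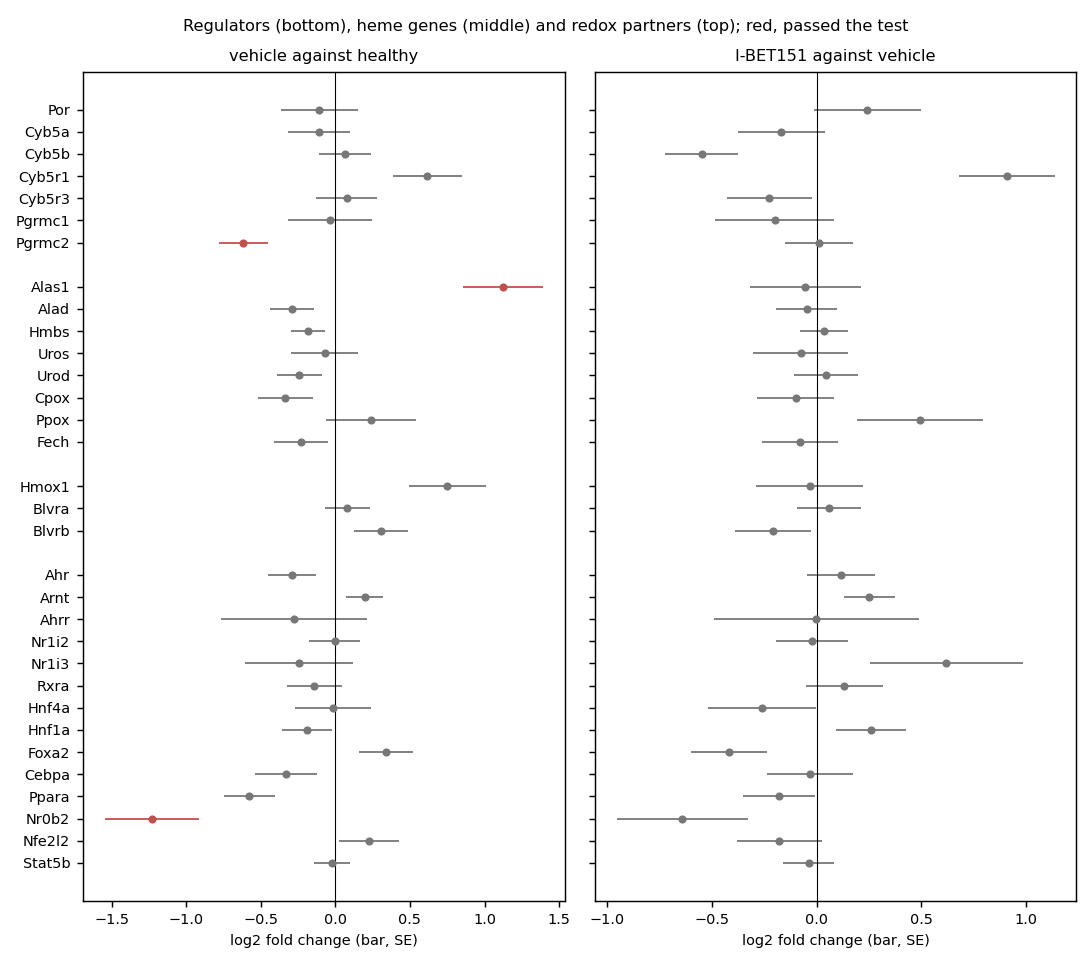
Log2 fold changes (points) with SE (bars) of redox partners, heme genes and regulators, vehicle against healthy on the left and I-BET151 against vehicle on the right, red where the adjusted p passed 0.05 or 0.1. On the left Alas1 (1.12), Pgrmc2 (-0.62) and Nr0b2 (-1.23) are red, and on the right none is.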

How the data were processed

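Liver RNA of 12 mice was sequenced from stranded mRNA libraries. The authors trimmed the reads, aligned them with STAR 2.5.1b to mm10 and counted uniquely mapped reads per gene with htseq-count (the deposited names say featureCounts). The deposited values are raw counts per Ensembl gene, and the annotation release is not given in the sources used here. Symbols came from GENCODE M21, which matched 47310 of 47729 identifiers. The study left out 1 unnamed I-BET151 sample for low gene counts, and all 4 were used here. Groups came from the sample labels. No 2 libraries of a group were alike within sampling noise (chi-square per degree of freedom of 35.3 or more).

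Counts were scaled by TMM and filtered with filterByExpr (minimum count 10), leaving 16823 genes. They were fitted once over the 12 mice with the quasi-likelihood test of edgeR 4.0.16 in R 4.3.3. Benjamini-Hochberg adjusted p was called at 0.05 for vehicle against healthy and at 0.1 for I-BET151 against vehicle livers, and SE is the log2 fold change over the square root of F. The fit was tested on simulated counts. Named members were all called ones, the 10 with the highest mean CPM, a fixed set of representatives from Cyp1a1 to Cyp3a13, and any whose groups did not overlap at a log2 difference of 1 or more. Named partners were the called ones and Por, Alas1, Ahr, Nr1i2 and Nr1i3. Others given with values (such as Cyp2a22, Cyp2c37, Cyp3a41a, Cyp3a59, Tiparp, Ahrr, Hmox1 and Glul) were chosen after their values were seen. 1 gene of the sex-predominant lists is not reported here. The P450 genes and lists were chosen with earlier results of these data known. Alternatives were DESeq2 1.42.0, RLE scaling, 2 other filters, 2-group fits, a replicate block, a lane covariate and leaving out each mouse. The 2-group fit without I-BET151 mouse 3 was chosen after seeing the data. Upstream windows are RefSeq's for GRCm38.p6. Intervals and floors cover counting error only. Tables and figures used Python 3.11.15, SciPy 1.17.1 and Matplotlib 3.10.9.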

Additional observations from a re-analysis of the deposited data

Results flagged for a closer look

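In 120 groups of 4 mice (40 genes named above, 3 groups each), 12 held 1 mouse far from the other 3 by Dixon's 95% criterion, where chance flags about 1 in 20. Vehicle mouse 3 was highest of its group for Cyp2b9 (374 CPM, next 69.6), Cyp2b13 (10.1 CPM, next 2.16) and Cyp3a44 (1.90 CPM, next 1.17) and lowest for Slco1a1 (4.97 CPM, next 34.95). I-BET151 mouse 2 was highest of its group for Cyp2d9 (2024 CPM, next 930.2) and Cyp3a41b (8.31 CPM, next 2.34). I-BET151 mouse 3, the library that stands apart, was lowest for Cyp2r1 (1.81 CPM, next 4.85) and Pgrmc2 (23.9 CPM, next 41.2) and highest for Nr1i3 (422 CPM, next 140.8). Healthy mouse 2 was highest for Cyp2b9 (6.68 CPM, next 0.447), healthy mouse 1 lowest for Ahr (43.3 CPM, next 51.4) and healthy mouse 3 lowest for Nr1i3 (118 CPM, next 156).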

How the results depend on the processing

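Each result was recomputed under 20 alternatives. Of vehicle against healthy livers, 5 P450 genes were higher in the reported fit, 3 when every mouse had to hold 10 counts, 8 with only the 2 groups, 2 with sequencing lane as a covariate and 3 at an adjusted p of 0.01, and 3 to 8 when each mouse was left out. For those lower, the reported 8 became 15 in DESeq2, 19 with only the 2 groups, 4 with a replicate block, 0 with the lane covariate and 3 at 0.01, and 3 to 19 when each mouse was left out. Calls over all genes tested changed as well, from 5.72% higher and 1.38% lower to 12% and 10.3% without I-BET151 mouse 3. For the other alternatives the shares over all genes are not given, so their numbers of P450 genes have no background beside them. Of I-BET151 against vehicle livers, 0 were higher (1 in DESeq2, 0 whichever mouse was left out), and the 1 lower became 3 in DESeq2 and without a filter on low counts, 0 with RLE scaling, with only the 2 groups, with the block, with the lane covariate and at an adjusted p of 0.05, and 0 to 2 when each mouse was left out. The causes were not tested.

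Of the refitted log2 fold changes of named genes, 615 of vehicle against healthy kept their direction and call, 98 lost the call, 25 gained one and 16 turned sign. For I-BET151 against vehicle these numbers were 149, 14, 7 and 8. The lane covariate turned the sign of vehicle against healthy log2 fold changes for Cyp2a12 (0.26), Cyp2c50 (0.49), Cyp2d10 (0.016), Cyp2e1 (0.16), Cyp2f2 (0.041) and Por (0.44), and of I-BET151 against vehicle for Cyp3a11 (-0.34), all without a call in the reported fit. Nr1i2 turned to 0.00067 with no filter, 0.027 with 10 counts in every mouse and 0.0019 with the block, and lay between -0.12 and 0.051 over the fits that left out a mouse, as Cyp3a13 did between -0.018 and 0.13. For I-BET151 against vehicle, leaving out each mouse gave -0.61 to 0.82 for Cyp2b13, -0.081 to 1.51 for Cyp2b9 and -0.37 to 0.50 for Cyp3a11, Cyp2b13 was at 0.11 with the block, and Cyp2b9 at -0.036 with 2 groups and no I-BET151 mouse 3. The share of all counts in P450 genes of healthy livers was 2.25%, and 2.61% on TMM-scaled totals.

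Mice with the same replicate number did not deviate together (mean correlation -0.07 and -0.06, against 0.02 for other pairs), so the numbers do not pair mice and the block is given only here. With 4 mice a group, and 1 I-BET151 library apart, small differences were not detectable.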
